A study of Mus musculus with 6 samples.

Results

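Ion channel genes were followed in the proximal mouse incisor after tamoxifen-induced deletion of Runx2 from Gli1-expressing cells. The members are the protein-coding genes whose symbol marks a subunit of a voltage-gated calcium channel (Cacna, Cacnb, Cacng), a voltage-gated sodium channel (Scn followed by a number and a or b) or a potassium channel (Kcn). The symbols matched 120 genes, and the 99 with 10 or more estimated counts in at least 3 of the 6 libraries were kept, out of 25700 genes in the table. The conditional knockout mice, called cKO, were Gli1-CreERT2;Runx2fl/fl: the Gli1 gene, a hedgehog target, drives a Cre enzyme that works only once tamoxifen is given. The control mice were Runx2fl/fl and carried no Cre. Both groups were C57BL/6 mice of 5 weeks that had been given tamoxifen (1.5 mg per 10 g body weight) daily for 3 days when 1 month old. Incisors were collected 1 week later. Each group held 3 mice. Since no control carried Cre, what loss of Runx2 did and what the Cre allele itself did cannot be told apart. The labels name no driver of Cre other than Gli1, no sex and no sequencing batch.

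Ion channels let calcium, sodium or potassium cross the cell membrane down their gradients. A voltage-gated calcium channel has a pore subunit (Cacna1 genes) and auxiliary subunits that set its surface amount and its gating, named alpha2delta (Cacna2d genes) and beta (Cacnb genes). Potassium channels set the resting potential and end electrical activity. Their classes include voltage-gated channels, channels opened by calcium or sodium, inward rectifiers (Kcnj) and tandem-pore-domain leak channels (Kcnk). In teeth, calcium channels of odontoblasts and ion transport by enamel-forming ameloblasts are known for their part in mineral supply, and potassium channels accompany both.

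Library totals ran from 62415177 to 66366749 estimated counts in the cKO mice and from 53525185 to 66694240 in the controls, so 1 count was worth 0.0149 to 0.0186 CPM, the count scaled to a common library size. Runx2, the targeted gene, measured 62.6, 54.0 and 49.0 CPM in cKO mice and 79.7, 77.7 and 81.2 CPM in controls (log2 fold change -0.53, SE 0.089, edgeR adjusted p = 0.0714). Gli1 measured 75.0, 77.9 and 70.6 CPM in cKO mice and 159, 89.7 and 207 CPM in controls (log2 fold change -1.03, SE 0.27, edgeR adjusted p = 0.131, and 0.0329 without control 2). The labels call the tissue dental mesenchyme. All 10 mesenchyme markers examined were present, with a summed level of 801 to 885 CPM in cKO mice and 658 to 751 CPM in controls. The 4 markers of secretory ameloblasts, which are epithelial, summed to 22163 to 46682 CPM in cKO mice and 60042 to 79541 CPM in controls, so transcripts of enamel epithelium were abundant in tissue with that label. Several marker lists separated the groups or set 1 mouse apart. For 4 of 4 secretory ameloblast markers all cKO mice lay below all controls, against 12.0% of all genes tested. The same held for 5 of 10 smooth muscle and pericyte markers, namely Acta2, Myh11, Cnn1, Tagln and Myl9. In that list Rgs5 overlapped, at 534, 654 and 575 CPM in cKO mice and 568, 570 and 624 CPM in controls. Notch3 went the other way, at 121, 119 and 120 CPM in cKO mice and 105, 109 and 101 CPM in controls. The list summed to 877 to 1011 CPM in cKO mice and 1023 to 1259 CPM in controls. Maturation ameloblast markers summed to 1112 to 2634 CPM in cKO mice and to 112, 1798 and 98.1 CPM in control 1 to 3. Odontoblast markers summed to 6627 to 12950 CPM in cKO mice and 3021 to 5260 CPM in controls. Macrophage markers summed to 610 to 783 CPM in cKO mice and 390 to 521 CPM in controls, and endothelial markers to 597 to 630 and 498 to 527 CPM. Osteoblast markers summed to 3339 to 5008 CPM in cKO mice and 2123 to 3025 CPM in controls. For 3 of these 6 markers all cKO mice lay above all controls, against 11.1% of all genes tested. A log2 fold change below 0 was found for 2 of the 6. Bglap measured 2431, 1905 and 3603 CPM in cKO mice and 1581, 901 and 754 CPM in controls, while Alpl overlapped. Neutrophil and marrow markers summed to 47.9, 21.2 and 2.43 CPM in cKO mice and 1.74 to 3.26 CPM in controls, setting cKO 1 and cKO 2 apart, and erythroid markers to 83.7, 115 and 31.8 CPM in cKO mice and 25.9 to 53.8 CPM in controls. Neuron markers summed to 43.0 to 62.7 CPM in cKO mice and 68.3 to 92.7 CPM in controls. Most of that sum was Tubb3, the only neuron marker tested that separated the groups. Tubb3 measured 46.15, 37.46 and 33.92 CPM in cKO mice and 55.78, 60.16 and 76.78 CPM in controls. By mean log2 CPM from the control mean the neuron list overlapped, at -0.183 to 0.165 in cKO mice and -0.158 to 0.0951 in controls. Melanocyte markers summed to 16.2 to 17.7 CPM in cKO mice and 12.4 to 14.4 CPM in controls, and most of that sum was Dct. The Schwann cell and dental epithelium sums overlapped between groups. Of the 7 dental epithelium markers, 5 had a log2 fold change below 0 and 2 above. For 2 of the 7, Sp6 and Shh, all cKO mice lay below all controls, against 12.0% of all genes tested. Skeletal muscle markers summed to 13.8 to 18.3 CPM in cKO mice and to 492, 16.1 and 18.3 CPM in control 1 to 3. Control 1 was also the 1 male, with 32 counts of Xist and 4059 of the Y-linked Ddx3y. No marker of any list was at 0 in all 6 libraries. In whole tissue a smaller number of cells of a type cannot be told apart from less RNA per cell, and the part of these markers in the channel results below was not tested.

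Channel transcripts ranged over 3 orders of magnitude, and a few genes carried most of the signal. Levels were compared between genes as mean CPM per kilobase of exon over the 6 mice. The 7 genes at 10 CPM per kilobase or more held 57.2% of the summed level of the 99, while 62 genes stood under 1 and 15 under 0.1 CPM per kilobase. The highest was Kcnk1, a tandem-pore-domain leak channel, at 43.2 CPM per kilobase. Next came Kcnj15, an inward rectifier (29.5 CPM per kilobase). The low-threshold (T-type) calcium pore gene Cacna1g followed at 17.7 CPM per kilobase and the ether-à-go-go channel Kcnh1 at 16.5. Kcnk2, a mechanosensitive leak channel, stood at 14.96 CPM per kilobase. The calcium channel beta subunit Cacnb3 (14.2 CPM per kilobase) and Cacng7, a gamma subunit known in brain for regulating AMPA receptors (11.1), completed the group. Of these 7, Kcnh1 varied least among mice, with 131, 124 and 121 CPM in cKO mice and 113, 117 and 123 CPM in controls. Kcnk1 measured 115, 77.0 and 61.9 CPM in cKO mice and 97.7, 106 and 122 CPM in controls, and its groups overlapped. Sodium channel pore genes were all low, the highest being Scn7a, the sodium-sensing relative of the family, at 0.418 CPM per kilobase.

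**Figure D1:**
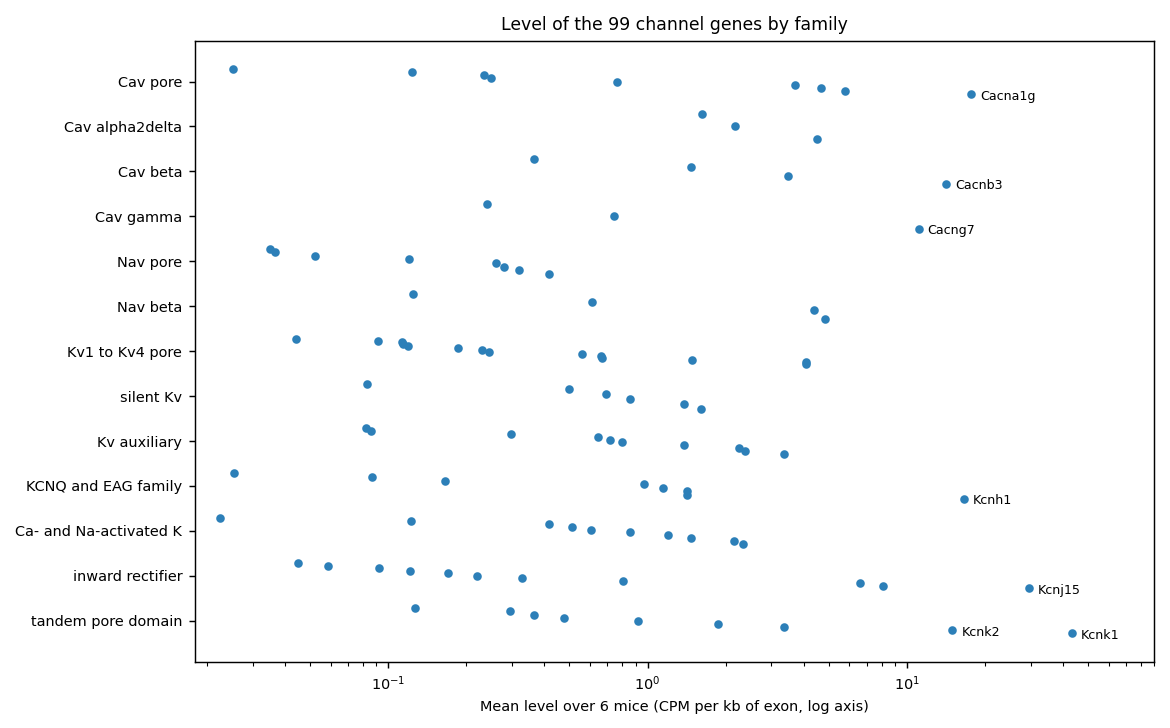
Mean level of each of the 99 channel genes over 6 mice in CPM per kilobase of exon (log axis), by family, with the 7 genes at 10 CPM per kilobase or more named. Kcnk1 stands highest at 43.2 CPM per kilobase, and the sodium channel pore genes all lie under 0.42 (Scn7a at 0.418).

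No channel gene passed the test across all genes. With edgeR's quasi-likelihood test and an adjusted p threshold of 0.05, 0 of 99 channel genes were called higher and 0 lower in cKO mice. Over the 19264 genes tested the shares were 0.0208% higher, 0.00519% lower and 0.026% in either direction (5 genes). All 99 were among the genes tested. At an unadjusted edgeR p under 0.05, 25 of 99 channel genes (25.3%) were found, against a background of 17.3% of all genes. Of these, 16 were lower in cKO mice (16.2%, background 8.55%) and 9 higher (9.09%, background 8.71%). Counting genes whose 3 cKO mice all lay on one side of all 3 controls gave 26 of 99 (26.3%, background 23.1%), with 16 lower (16.2%, background 12.0%) and 10 higher (10.1%, background 11.1%). DESeq2 called 15 of 99 at an adjusted p under 0.05, against a background of 6.92%. It called 13 lower (13.1%, background 3.3%) and 2 higher (2.02%, background 3.62%), and it gave no adjusted p for 9 members of few counts. The DESeq2 count of lower genes was 7 without control 3 and 8 without cKO 3, when its count over all genes was 352 and 326 lower, against 635 with all mice. The median log2 fold change of the 99 was 0.0081, with 50 above 0 and 49 below, and that of all genes tested was 0.000048.

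**Figure D2:**
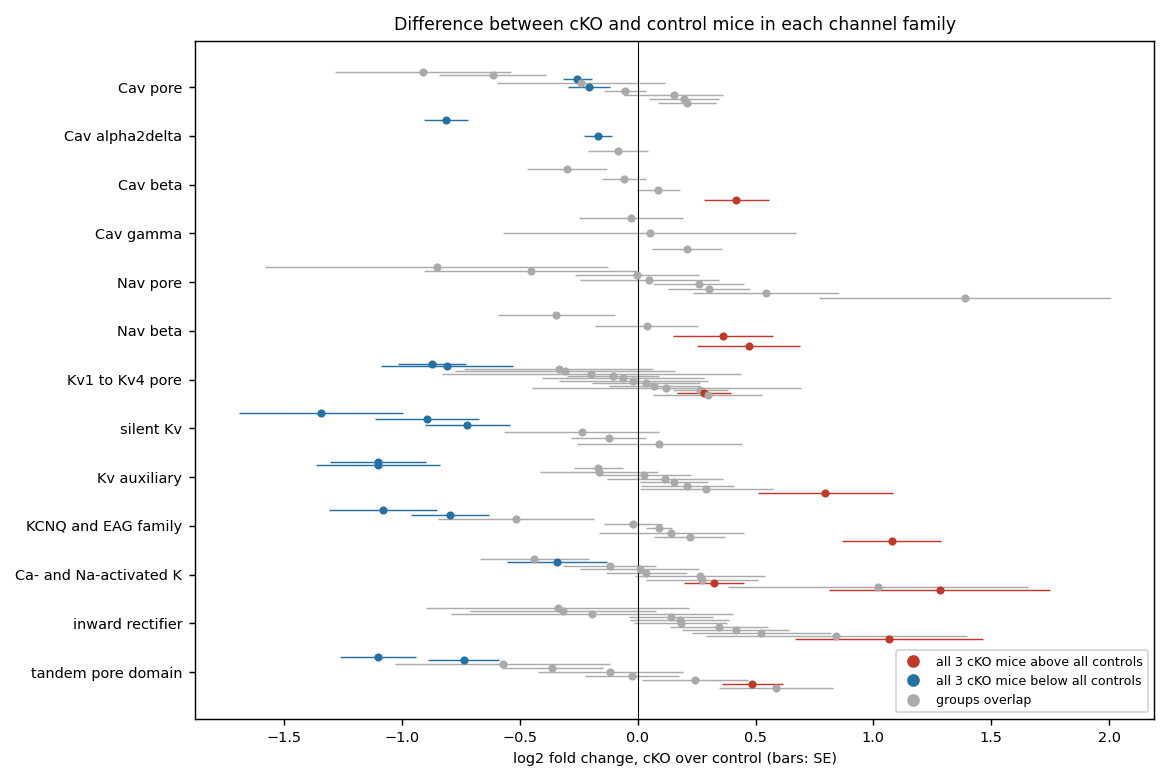
Log2 fold change of cKO over control mice for each of the 99 channel genes by family, with standard errors as bars. Blue points are the 16 genes with all cKO mice below all controls, red points the 10 with all cKO mice above, and grey points the 73 with overlapping groups.

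Among calcium channel genes the alpha2delta subunit Cacna2d2 had the lowest p of all channel genes. Alpha2delta subunits lie on the outer face of the membrane, carry channels to the surface and include the binding site of gabapentin. Cacna2d2 (chromosome 9, 107399612 to 107529343, build mm10) measured 9.48, 9.34 and 9.21 CPM in cKO mice and 17.7, 14.6 and 17.0 CPM in controls. The cKO mice lay close together and all below the controls (9.34 ± 0.135 and 16.4 ± 1.66 CPM, SD, n = 3 each). The difference, -0.81 on the log2 scale (SE 0.093), missed the threshold (edgeR adjusted p = 0.0610), but passed with DESeq2 (adjusted p = 7.34e-10) and, by edgeR, without control 2 (log2 fold change -0.89, adjusted p = 0.0329). The highest adjusted p over its 13 alternatives was 0.137. The other alpha2delta genes differed less. Cacna2d1, the form of muscle and nerve and the highest of the family, measured 52.4, 55.9 and 50.03 CPM in cKO mice and 59.8, 61.1 and 57.0 CPM in controls (log2 fold change -0.17, SE 0.060, edgeR adjusted p = 0.222). Cacna2d3 measured 19.4, 17.2 and 18.7 CPM in cKO mice and 20.2, 22.4 and 15.9 CPM in controls, so its groups overlapped. The 3 genes together gave 7.64, 7.66 and 7.33 CPM per kilobase in cKO mice and 9.36, 9.33 and 8.56 CPM per kilobase in controls.

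Of 9 calcium channel pore genes, 6 were below 0 and 3 above, with a median log2 fold change of -0.21. Cacna1d, a pore of the L-type class that opens at modest depolarization, measured 41.9, 45.0 and 41.1 CPM in cKO mice and 48.0, 53.2 and 51.5 CPM in controls (log2 fold change -0.26, SE 0.063, edgeR adjusted p = 0.120). Cacna1c, the L-type pore of heart and smooth muscle, was also lower in every cKO mouse, at 81.8, 98.2 and 96.1 CPM against 99.9, 116 and 103 CPM in controls (log2 fold change -0.21, edgeR adjusted p = 0.298). Cacna1g, the pore gene of highest level, did not separate the groups, with 171, 164 and 195 CPM in cKO mice and 192, 191 and 166 CPM in controls (log2 fold change -0.054, SE 0.089). Its direction turned without cKO 2. Cacna1b, the N-type pore of nerve endings, measured 1.15, 0.928 and 0.849 CPM in cKO mice and 1.14, 1.79 and 1.55 CPM in controls (log2 fold change -0.62, edgeR adjusted p = 0.235). Neuron markers, whose sum was mostly Tubb3 and was lower in every cKO mouse, had 4 of 8 tested genes above 0 and 4 below. Cacna1s, the pore of skeletal muscle, measured 1.39, 1.18 and 0.833 CPM in cKO mice and 3.31, 1.28 and 1.84 CPM in controls. It was highest in control 1, the mouse with 492 CPM of muscle markers. Its log2 fold change was -0.91 (SE 0.37, edgeR adjusted p = 0.275) and -0.45 without control 1, and 20.0% of its exonic sequence lies antisense to Gm37759.

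The beta subunits bind the pore inside the cell. Cacnb4 measured 3.66, 3.87 and 3.72 CPM in cKO mice and 3.16, 2.50 and 2.75 CPM in controls. All cKO mice lay above all controls (log2 fold change 0.42, SE 0.14, edgeR adjusted p = 0.195), but 16.0% of its exonic sequence is shared with the antisense transcript A430018G15Rik. The abundant Cacnb3 measured 58.4, 54.6 and 54.2 CPM in cKO mice and 61.2, 49.8 and 63.0 CPM in controls, with overlapping groups (log2 fold change -0.058, SE 0.093, turning to 0.0049 without control 3). Of the gamma genes, 3 of 7 reached the count minimum. Cacng7 measured 27.2, 30.9 and 29.0 CPM in cKO mice and 27.3, 28.8 and 19.2 CPM in controls. None of the 3 gamma genes separated the groups, against 23.1% of all genes tested.

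The stretch before the start of a gene holds many of its control elements, and RUNX factors bind a core written TGTGGT or TGCGGT. The 250 bases before the RefSeq start (build GRCm38.p6) were available for 72 of the 99 genes. They are shown for the 4 genes of lowest p that had one, of which Cacna2d2, Kcnk5 and Kcnip2 were lower and Kcnh2 higher in cKO mice. Capitals mark matches, on either strand, to the RUNX core or to the GC box GGGCGG that Sp-family factors bind. The windows lie at chr9:107399630-107399879 (plus strand, Cacna2d2), chr14:20181783-20182032 (minus strand, Kcnk5), chr19:45816064-45816313 (minus strand, Kcnip2) and chr5:24329592-24329841 (minus strand, Kcnh2).
Cacna2d2: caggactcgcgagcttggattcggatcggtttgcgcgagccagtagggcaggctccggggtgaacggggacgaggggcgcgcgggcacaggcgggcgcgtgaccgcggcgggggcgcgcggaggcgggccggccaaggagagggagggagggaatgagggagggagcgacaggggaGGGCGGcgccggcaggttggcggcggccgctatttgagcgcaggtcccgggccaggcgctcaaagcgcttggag
Kcnk5: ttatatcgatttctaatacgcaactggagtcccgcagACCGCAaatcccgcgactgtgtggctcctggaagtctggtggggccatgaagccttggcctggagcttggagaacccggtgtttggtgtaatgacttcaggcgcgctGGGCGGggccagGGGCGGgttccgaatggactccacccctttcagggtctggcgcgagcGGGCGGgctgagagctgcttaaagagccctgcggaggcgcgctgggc
Kcnip2: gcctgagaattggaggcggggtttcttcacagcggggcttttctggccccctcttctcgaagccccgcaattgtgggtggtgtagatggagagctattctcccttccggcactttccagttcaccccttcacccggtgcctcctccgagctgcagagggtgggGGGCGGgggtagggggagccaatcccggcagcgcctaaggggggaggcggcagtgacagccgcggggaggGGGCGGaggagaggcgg
Kcnh2: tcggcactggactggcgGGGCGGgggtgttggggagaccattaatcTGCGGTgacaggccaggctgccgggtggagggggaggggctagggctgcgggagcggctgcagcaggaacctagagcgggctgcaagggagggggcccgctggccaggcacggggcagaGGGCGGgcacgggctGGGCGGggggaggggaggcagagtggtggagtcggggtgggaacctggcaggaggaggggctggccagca
Kcnk5 held 1 RUNX core match (ACCGCA, the core TGCGGT read on the other strand) and Kcnh2 held 1 (TGCGGT), while the windows of Cacna2d2 and Kcnip2 held none. The RefSeq start used for Kcnh2 lies 22013 bases inside the gene as the table bounds it, so its window belongs to an internal start and not to the stretch before the longest transcript. The start used for Cacna2d2 lies 268 bases inside the gene, so its window too falls within the gene, which begins at 107399612. Those of Kcnk5 and Kcnip2 lie within 27 bases of the gene's start. GC boxes numbered 1 in Cacna2d2, 3 in Kcnk5, 2 in Kcnip2 and 3 in Kcnh2. Over all windows of the channel genes, 20.4% of 103 held a RUNX core, against 18.6% of the 32851 windows of all genes. A GC box stood in 43.7% of channel windows and 32.7% of all windows, and TATAAA in 4.85% and 12.4%. The median GC content was 58.8% in channel windows and 52.4% in all windows. These matches describe letters in this window and do not show binding.

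Sodium channels carry the upstroke of the action potential in nerve and muscle. None of the 8 pore genes separated the groups, against 23.1% of all genes tested. Scn9a, a channel of pain-sensing neurons, had the largest fold change of any channel gene (log2 fold change 1.39, SE 0.62), but it measured 0.328, 0.832 and 1.75 CPM in cKO mice and 0.186, 0.466 and 0.439 CPM in controls. The cKO 1 value lay within the controls, and without cKO 3 the log2 fold change was 0.65 (edgeR adjusted p with all mice 0.308). Scn7a measured 2.28, 3.46 and 3.44 CPM in cKO mice and 3.44, 2.09 and 3.68 CPM in controls. Scn1a, a pore of inhibitory neurons, ranged from 0.746 to 1.49 CPM in cKO mice and had 1.117, 2.65 and 0.895 CPM in controls, so that control 2 stood alone at the top. Scn3b, an auxiliary beta subunit that adjusts sodium channel gating, measured 0.761, 0.864 and 0.673 CPM in cKO mice and 0.652, 0.646 and 0.490 CPM in controls. All cKO mice lay above all controls, by a small margin (log2 fold change 0.36, SE 0.21, edgeR adjusted p = 0.435).

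Voltage-gated potassium pore genes of the Kcna, Kcnb, Kcnc and Kcnd groups had 6 members above 0 and 8 below, with a median log2 fold change of -0.040. Kcnb2, a delayed rectifier (chromosome 1, 15287254 to 15723750), measured 1.91, 2.27 and 1.79 CPM in cKO mice and 3.80, 3.52 and 3.63 CPM in controls. The spread within each group was small beside the difference (1.99 ± 0.2495 and 3.65 ± 0.141 CPM, SD, n = 3 each; log2 fold change -0.87, SE 0.14, edgeR adjusted p = 0.0672, DESeq2 adjusted p = 4.54e-05). Kcna3, the channel known from T lymphocytes and microglia, measured 5.72, 7.86 and 3.43 CPM in cKO mice and 9.29, 8.94 and 11.6 CPM in controls (log2 fold change -0.81, SE 0.28, edgeR adjusted p = 0.213). Macrophage markers were higher in every cKO mouse for 7 of 8 genes, against 11.1% of all genes tested. No T lymphocyte markers were examined, and whether either cell type bears on Kcna3 was not tested. Kcnd2, a transient potassium channel of neurons and heart, measured 1.43, 1.15 and 0.801 CPM in cKO mice and 1.30, 2.29 and 0.591 CPM in controls, which held both its highest and its lowest value (log2 fold change -0.31, and 0.26 without control 2).

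The electrically silent subunits do not form channels by themselves and join Kcnb pores to change their gating. Of 6 members, 5 were below 0, with a median log2 fold change of -0.48, the lowest of the 13 families. All cKO mice lay below all controls for 3 of the 6, against 12.0% of all genes tested. Kcnf1 measured 6.25, 5.54 and 4.37 CPM in cKO mice and 7.84, 9.11 and 13.1 CPM in controls (log2 fold change -0.89, SE 0.22, edgeR adjusted p = 0.117). Kcng1 measured 4.64, 5.79 and 3.65 CPM in cKO mice and 7.52, 7.11 and 8.62 CPM in controls (log2 fold change -0.72, SE 0.18, edgeR adjusted p = 0.122). Kcns1 measured 0.627, 0.944 and 0.721 CPM in cKO mice and 2.83, 1.16 and 1.86 CPM in controls (log2 fold change -1.34, SE 0.35, edgeR adjusted p = 0.130). The summed level of the family was 4.04, 4.66 and 3.28 CPM per kilobase in cKO mice and 6.14, 5.38 and 7.25 CPM per kilobase in controls. DESeq2 called 3 of the 6 members lower, the same 3 genes, against 3.3% of all genes. The family had the lowest median of the 13 in these same data, so neither share is an independent test. Kcnf1 was called lower in all 6 fits that left out a mouse, Kcng1 in 5 of them and Kcns1 in 2.

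Auxiliary subunits of voltage-gated potassium channels went both ways, with 6 of 10 above 0. Kcnip2, a calcium-binding partner of Kcnd channels known for the transient outward current of the heart (chromosome 19, 45791839 to 45816061), measured 1.54, 1.49 and 1.23 CPM in cKO mice and 3.78, 2.45 and 2.94 CPM in controls (log2 fold change -1.10, SE 0.20, edgeR adjusted p = 0.0819). Its promoter window is the third of those printed above. Kcnip3, the family member of highest level, measured 11.52, 11.3 and 10.8 CPM in cKO mice and 12.03, 11.4 and 14.4 CPM in controls. The groups lay close and overlapped for Kcnip3 (log2 fold change -0.17, SE 0.10). Kcne2, a small membrane subunit that serves acid secretion in the stomach, measured 0.403, 0.368 and 0.224 CPM in cKO mice and 0.745, 0.661 and 0.743 CPM in controls (log2 fold change -1.10, SE 0.26, edgeR adjusted p = 0.113). Kcne4, a related subunit that inhibits Kcnq1, went the other way, with 11.1, 6.75 and 4.98 CPM in cKO mice and 3.70, 4.66 and 4.78 CPM in controls. Much of the Kcne4 difference lay in cKO 1 (log2 fold change 0.80, SE 0.29, edgeR adjusted p = 0.227, and 0.42 without cKO 1).

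Kcnq and Kcnh genes encode slow potassium channels that restrain firing and repolarize the heart. They held the highest-ranked gene in the upward direction. Kcnh2, the channel that ends the cardiac action potential (chromosome 5, 24319589 to 24351604), measured 11.6, 8.34 and 8.07 CPM in cKO mice and 3.93, 5.59 and 3.72 CPM in controls. Every cKO mouse lay above every control, and cKO 1 and control 2 were the highest of their groups (9.33 ± 1.96 and 4.41 ± 1.03 CPM, SD, n = 3 each). The difference, 1.08 on the log2 scale (SE 0.21), missed the threshold (edgeR adjusted p = 0.0878; DESeq2 adjusted p = 9.73e-05) and lay between 0.90 and 1.29 in the fits that left out a mouse. Maturation ameloblast markers were also highest in cKO 1 among cKO mice and in control 2 among controls. Kcnh3, a brain channel of the same family, measured 5.54, 4.83 and 4.15 CPM in cKO mice and 7.63, 7.52 and 10.1 CPM in controls (log2 fold change -0.80, SE 0.17, edgeR adjusted p = 0.0913). Kcnq5, a channel of the muscarine-sensitive M current, measured 0.687, 1.06 and 0.721 CPM in cKO mice and 1.73, 1.49 and 1.99 CPM in controls (log2 fold change -1.08, SE 0.23, edgeR adjusted p = 0.0935). The abundant Kcnh1 had a log2 fold change of 0.091 (SE 0.056, edgeR adjusted p = 0.456).

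**Figure D3:**
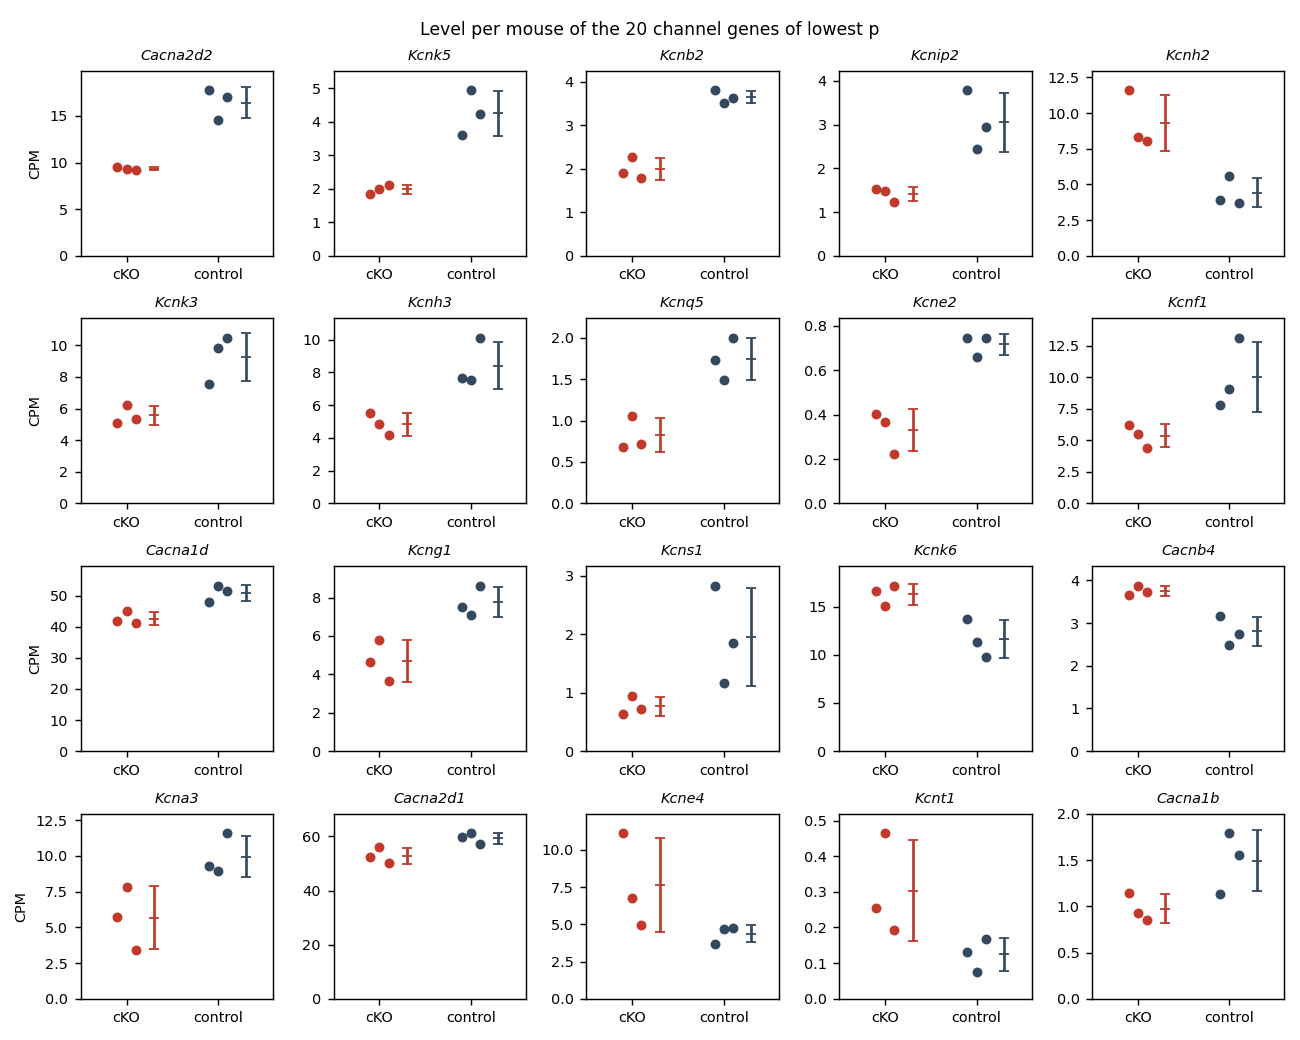
Level in CPM of the 20 channel genes of lowest p, 1 point per mouse, with cKO mice in red at the left and controls in dark blue at the right, and mean ± SD beside the points. The groups do not overlap for 19 of the 20, the exception being Cacna1b, against 23.1% of all genes tested. The 20 were picked by p in these same data, so such separation largely follows from the choice. None of them passed the edgeR threshold.

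Potassium channels opened by calcium or sodium had 7 of 10 members above 0, with a median log2 fold change of 0.15. Kcnma1, the large-conductance calcium-activated channel, measured 9.39, 9.07 and 10.6 CPM in cKO mice and 8.90, 7.53 and 6.77 CPM in controls (log2 fold change 0.32, SE 0.13, edgeR adjusted p = 0.255). Its smooth muscle beta subunit Kcnmb1 went the other way, with 0.433, 0.528 and 0.400 CPM in cKO mice and 0.633, 0.556 and 0.541 CPM in controls (log2 fold change -0.34, SE 0.21, edgeR adjusted p = 0.460). Smooth muscle and pericyte markers were below 0 for 8 of 10 genes. Kcnt1, a sodium-activated channel of neurons, measured 0.254, 0.464 and 0.192 CPM in cKO mice and 0.130, 0.0752 and 0.169 CPM in controls (log2 fold change 1.28, SE 0.47, edgeR adjusted p = 0.230). Its relative Kcnt2, the family member of highest level, measured 14.9, 17.1 and 20.7 CPM in cKO mice and 16.1, 17.9 and 9.48 CPM in controls, with control 3 alone at the bottom. Kcnn4, the intermediate-conductance channel of red cells and lymphocytes, had the widest range of the 71 channel genes with a mean of at least 1 CPM, its highest mouse at 6.09 times its lowest. It measured 6.84, 2.99 and 7.81 CPM in cKO mice and 1.43, 5.94 and 1.28 CPM in controls, so control 2 stood among the cKO mice. The log2 fold change was 1.02 (SE 0.64, edgeR adjusted p = 0.465) and 2.11 without control 2. The maturation ameloblast markers had the same outlying mouse, with a mean log2 CPM 3.32, 2.46 and 2.32 above the control mean in cKO mice and at -1.05, 2.44 and -1.39 in controls.

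**Figure D4:**
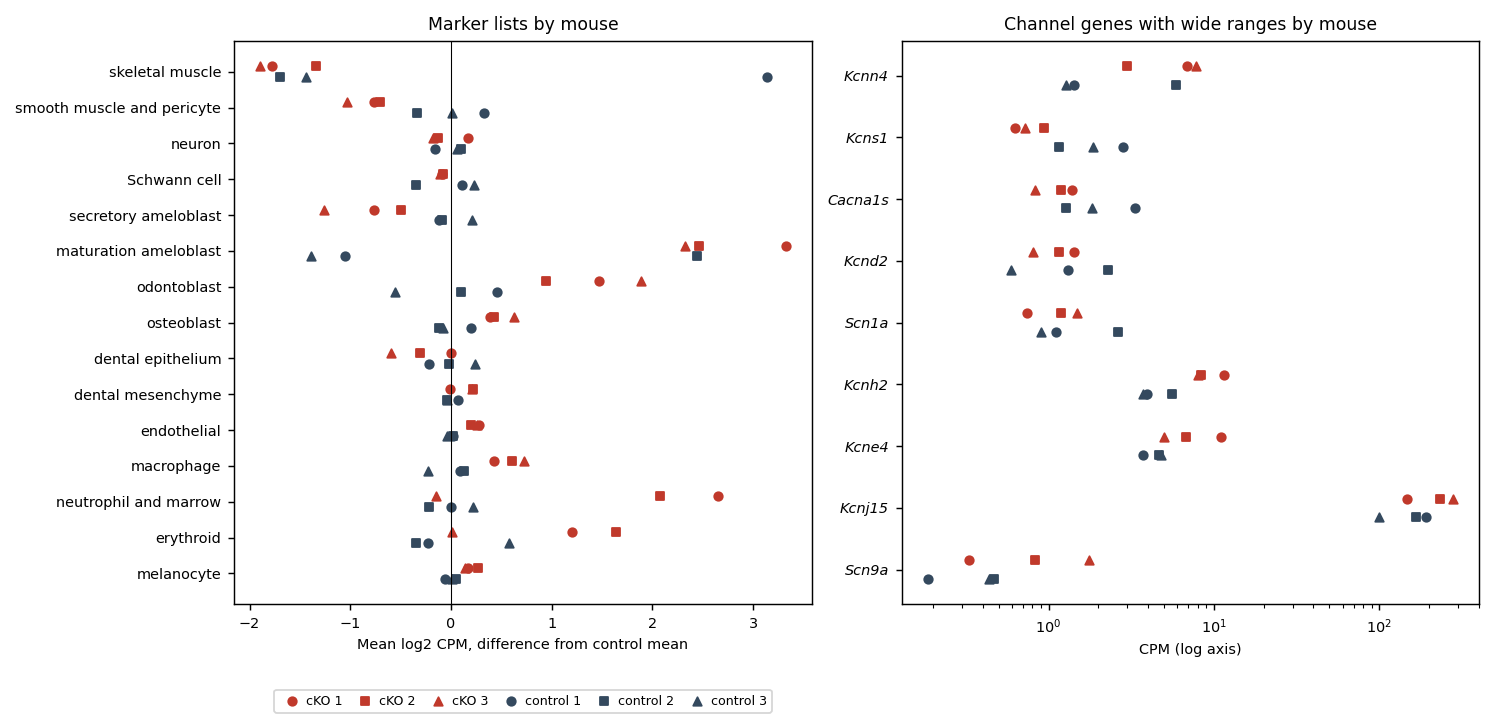
Left, mean log2 CPM of 15 marker lists in each mouse as the difference from the control mean. Right, the level in CPM (log axis) of the 5 channel genes with the widest range and of Kcnh2, Kcne4, Kcnj15 and Scn9a; circles, squares and triangles are mice 1, 2 and 3 of each group, cKO in red above control in dark blue. Control 2 lies with the cKO mice for maturation ameloblast markers (2.44) and for Kcnn4 (5.94 CPM), and control 1 stands apart for skeletal muscle markers (3.14) and is highest for Cacna1s (3.31 CPM).

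Inward rectifiers hold the resting potential and let potassium enter more readily than it leaves. Of 11 members, 8 were above 0, with a median log2 fold change of 0.18. Only Kcnj9 had groups that did not overlap (9.09% of the 11, against 23.1% of all genes tested). Kcnj9, a channel opened by G proteins, lay near the count minimum at 0.269, 0.208 and 0.304 CPM in cKO mice and 0.186, 0.120 and 0.0676 CPM in controls (log2 fold change 1.07, SE 0.40, edgeR adjusted p = 0.240). Kcnj15 measured 146, 232 and 280 CPM in cKO mice and 192, 166 and 99.7 CPM in controls. The groups of Kcnj15 overlapped (log2 fold change 0.53, SE 0.30, edgeR adjusted p = 0.414). Kcnj2, a classical inward rectifier of muscle, measured 35.7, 46.3 and 56.9 CPM in cKO mice and 48.9, 40.3 and 36.7 CPM in controls. Kcnj8, a subunit of ATP-sensitive channels typical of pericytes, measured 14.6, 17.9 and 20.98 CPM in cKO mice and 12.9, 20.7 and 13.6 CPM in controls, and neither gene separated the groups.

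Tandem-pore-domain genes encode leak channels that respond to pH, stretch and lipids. Kcnk5, a channel opened by alkaline pH and known from the kidney tubule (chromosome 14, 20140057 to 20181809), had the second lowest p of the 99. It measured 1.85, 1.98 and 2.11 CPM in cKO mice and 3.59, 4.93 and 4.24 CPM in controls, with no overlap (1.98 ± 0.132 and 4.25 ± 0.669 CPM, SD, n = 3 each). Its log2 fold change was -1.10 (SE 0.16, edgeR adjusted p = 0.0625, DESeq2 adjusted p = 1.21e-06). Kcnk3, an acid-sensitive leak channel, measured 5.09, 6.24 and 5.36 CPM in cKO mice and 7.58, 9.80 and 10.5 CPM in controls (log2 fold change -0.74, SE 0.15, edgeR adjusted p = 0.0884). Kcnk6 went the other way, with 16.6, 15.1 and 17.2 CPM in cKO mice and 13.7, 11.3 and 9.81 CPM in controls (log2 fold change 0.49, SE 0.13, edgeR adjusted p = 0.135). The mechanosensitive Kcnk2 measured 76.2, 80.1 and 110 CPM in cKO mice and 77.8, 58.8 and 40.7 CPM in controls. Its groups met at cKO 1 and control 1 (log2 fold change 0.59, SE 0.24, edgeR adjusted p = 0.275), and 12.2% of its exonic sequence is shared with A430027H14Rik. Kcnk1 had a log2 fold change of -0.36 (SE 0.21, edgeR adjusted p = 0.439), -0.64 without cKO 1, in which it was highest among the cKO mice.

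Over the channel genes of at least 1 CPM the highest mouse stood at a median of 1.76 times the lowest, against 1.28 over all 15119 genes with that minimum. Of the 71 channel genes, 48 stood under 10 CPM, so the medians were also taken by level. From 1 to under 10 CPM the median was 1.81 for 48 channel genes and 1.55 for all 4555 genes, and at 10 CPM or more it was 1.61 for 23 channel genes and 1.21 for all 10564. The count minimum left out 21 genes. Just outside it was Cacna2d4, with 5, 9 and 6 counts in cKO mice and 17, 9 and 17 in controls, and just inside was Kcnj13, with 10.9, 7.6 and 20.5 in cKO mice and 4.6, 28 and 9.5 in controls. The gene left out with the most counts in any library was the muscle subunit Cacng1, at 21 counts. Of the 99 members, 34 share exonic bases with another annotated gene and 8 share more than 10%, so some of their reads may belong to a partner.

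Genes that regulate these channels or move the same ions were listed apart, 116 in 8 lists, of which 103 were tested. None passed the edgeR threshold. At an unadjusted edgeR p under 0.05, 17 were higher (16.5%, background 8.71%) and 12 lower (11.7%, background 8.55%). DESeq2 called 7 higher (6.80%, background 3.62%) and 4 lower (3.88%, background 3.3%). The median log2 fold change of the 103 was 0.043. Among calcium pumps and exchangers Atp2a3, a pump that fills the endoplasmic reticulum, measured 13.3, 14.1 and 14.5 CPM in cKO mice and 9.61, 9.32 and 10.9 CPM in controls (log2 fold change 0.49, SE 0.089, edgeR adjusted p = 0.0819). Slc24a2, a potassium-dependent sodium-calcium exchanger, measured 20.6, 16.5 and 16.4 CPM in cKO mice and 28.7, 22.3 and 31.4 CPM in controls (log2 fold change -0.62, edgeR adjusted p = 0.110). Of 11 genes of calcium entry and release, Itpr1, the inositol trisphosphate receptor that releases stored calcium, was the lowest in p, with 223, 298 and 187 CPM in cKO mice and 433, 365 and 497 CPM in controls (log2 fold change -0.87, SE 0.19, edgeR adjusted p = 0.0935). Among calcium channel partners Stac3, which serves excitation and contraction coupling in skeletal muscle, measured 20.96, 17.2 and 16.4 CPM in cKO mice and 25.1, 28.6 and 26.0 CPM in controls (log2 fold change -0.55, edgeR adjusted p = 0.0878). Ryr1, the calcium release channel of skeletal muscle, measured 1.67, 1.62 and 1.06 CPM in cKO mice and 10.9, 1.97 and 2.08 CPM in controls, with control 1, the mouse with muscle markers, far above the rest (log2 fold change -1.78, SE 0.69, edgeR adjusted p = 0.252, and -0.48 without control 1). The muscle calcium pump Atp2a1, which is also one of the muscle markers, measured 0.224, 0.528 and 0.160 CPM in cKO mice and 49.9, 0.150 and 0.659 CPM in controls. The sodium channel partner Fgf14 measured 2.36, 2.70 and 1.68 CPM in cKO mice and 1.27, 1.14 and 1.05 CPM in controls (log2 fold change 0.96, edgeR adjusted p = 0.102). Of the potassium channel partners, 0 of 9 reached an unadjusted p under 0.05, the lowest being Dpp6 (log2 fold change -0.57, edgeR adjusted p = 0.371). The pacemaker channel Hcn4 measured 5.87, 5.57 and 10.3 CPM in cKO mice and 4.64, 4.45 and 2.601 CPM in controls (log2 fold change 0.89, edgeR adjusted p = 0.212). In the TRP family, 5 of 25 genes were higher and 3 lower at an unadjusted edgeR p under 0.05. Trpv3, a heat-sensitive channel of keratinocytes, measured 2.22, 1.42 and 1.81 CPM in cKO mice and 0.819, 1.10 and 0.709 CPM in controls (log2 fold change 1.05, edgeR adjusted p = 0.110). Among mechanosensitive and proton channels the lowest p was that of Tmem63c (log2 fold change 0.94, edgeR adjusted p = 0.225).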

How the data were processed

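Single-end reads of 75 cycles from 6 incisors, 1 library per mouse, had been processed with STAR 2.6.1d and Partek on mm10, per the submitters' processing notes, which give no roles or parameters; no annotation or counting setting is given in the sources used here. Estimated counts, as deposited, span 25700 genes and were rounded to whole numbers for testing (45.6% to 48.0% of values were whole, tolerance 1e-09). The second deposited table, a normalized signal for 20676 genes, equalled the count plus 1 times 1 factor per library in 100% of values within 0.1%, and was used only for that check.

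After filterByExpr (minimum count 10 and minimum total count 15, both required) 19264 genes remained. These were scaled by TMM and tested with edgeR 4.0.16's quasi-likelihood F-test in R 4.3.3 on all 6 libraries. The p-values, two-sided, were adjusted by Benjamini-Hochberg across every gene tested. DESeq2 1.42.0, limma 3.58.1 (voom), other scalings and filters, and leaving out each mouse were alternatives. The scripts were tested on simulated counts. CPM uses TMM-scaled library sizes. Levels per kilobase use the exon union of GENCODE M21 (GRCm38), found for all 120 matching genes. Marker lists were averaged as log2(CPM + 0.25). Members and lists were chosen with earlier results of these data known. The named genes are the 20 of lowest p, the gene of highest level per kilobase in each family, the 5 of widest range, up to 3 per related list, Runx2 and Gli1; Cacna1c, Cacna2d3, Kcnma1, Kcnmb1, Kcnj2, Kcnj8, Kcnj9, Kcnk2, Scn3b, Scn9a and Atp2a1 were added after their values were seen. A few genes that the rule names are not reported here. Mice are numbered in accession order, and replicate libraries differed by 46.1 to 73.5 in chi-square per degree of freedom, so none was a repeat. The labels number each mouse separately, without saying whether mice share a litter.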

Additional observations from a re-analysis of the deposited data

How the results depend on the processing

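Of 772 values of the 60 named genes under 13 alternatives, 732 kept their direction and their side of the threshold. Another 29 came to pass it (27 with DESeq2 and Cacna2d2 and Gli1 without control 2) and 11 turned in sign. With all mice no named gene passed by edgeR, and many were named for a low p, so these counts do not describe the channel genes as a whole. Of all 99 channel genes, 64 kept their sign in all 6 fits that left out a mouse, and 35 turned in at least 1. The 25 channel genes with an unadjusted edgeR p under 0.05 with all mice all kept their sign. The scaling, the filters and limma-voom left the number of channel genes called at 0, while DESeq2 called 2 higher and 13 lower. Leaving out a mouse gave 0 higher and 0 to 1 lower by edgeR, and 1 to 5 higher and 7 to 12 lower by DESeq2. Among all genes the same DESeq2 fits called 356 to 684 higher and 326 to 607 lower, against 698 and 635 with all mice. At an unadjusted edgeR p under 0.05, counts of channel genes ran from 14 to 17 lower and 5 to 11 higher without a mouse. The 5 were without control 2 or without control 3. In those fits 2359 to 3278 of all genes had an unadjusted p under 0.05 in either direction, against 3325 with all mice. Over all genes the edgeR count of 5 was 0 with a filter of mean 1 CPM (2843 genes at an unadjusted p under 0.05), 1333 with DESeq2, and 0 to 72 without a mouse. The median log2 fold change of the channel genes lay between -0.034 and 0.056 without a mouse. The direction of Scn7a turned to 0.0039 with upper-quartile scaling, 0.0058 with no filter, 0.0078 with a filter of 1 CPM and 0.023 with limma-voom, and its range without a mouse was -0.22 to 0.17. Cacna1g ranged from -0.13 to 0.0034 without a mouse, Cacnb3 from -0.16 to 0.0049, Kcnd2 from -0.67 to 0.26 and Scn1a from -0.73 to 0.18. The cause was not tested. No paired analysis was possible because no number in the labels is shared by a cKO and a control mouse. Kcne2 and Kcnt1 were not tested with the filter of 1 CPM. Of the members, 28 averaged under 1 CPM, where 1 count is worth 0.0149 to 0.0186 CPM; what size of difference 3 mice a group could show at that level was not tested.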

Other observations

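Channel genes often lie side by side in the mouse genome, which allowed neighbours to be compared. Of the 99, 32 fell into 12 groups in which the next gene lay within 1000000 bases, and in 5 groups all members had the same sign of log2 fold change. The 5 sodium channel pore genes on chromosome 2, from 65457118 to 66784914 (mm10), did not move together. Scn9a stood at 1.39 (SE 0.62), Scn3a at 0.54 (SE 0.31), Scn2a at 0.26 (SE 0.19), Scn7a at -0.0038 (SE 0.26) and Scn1a at -0.45 (SE 0.45), and none passed the test (edgeR adjusted p from 0.308 to 0.996). On chromosome 3 Kcna3 had a log2 fold change of -0.81 (SE 0.28), while the adjacent Kcna2 stood at 0.30 (SE 0.23). Cacna1d and Cacna2d3, neighbours on chromosome 14, stood at -0.26 (SE 0.063) and -0.084 (SE 0.13). On chromosome 15 Kcnh3 stood at -0.80 (SE 0.17) and its neighbour Cacnb3 at -0.058 (SE 0.093).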
